A study of Mus musculus with 12 samples.

Results

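The genes described are Egr2, Nr4a1 and Ier3, 3 genes of the immediate early response, chosen by gene symbol from the 3186 genes that 2 deposited tables of mouse RNA sequencing hold between them. Egr2 and Ier3 had a row in both tables and Nr4a1 in the microglia table only, so Nr4a1 in Treg cells is not analysed here. The choice was made with the fold changes of these same comparisons known, and the tables themselves were limited by the authors to genes that differed between their groups. The values of the 3 genes are therefore given as a description, with no test. The first table compared regulatory T (Treg) cells, a T cell class that dampens immune responses, isolated from the injured spinal cord (n = 3) and from the spleen (n = 3) at 14 days after spinal cord injury. The second compared primary microglia, the macrophages that live in brain and spinal cord, here in culture, that had been co-cultured with Treg cells (n = 3) with unstimulated control microglia (n = 3). Strain, sex and age of the mice, the sort or purity of the cells and the length of the co-culture are not given in the sources used here, and the labels do not say whether replicates are separate animals or cultures, so the spread between libraries may be technical. In bulk samples, fewer cells of a type and less RNA per cell cannot be told apart.

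Immediate early genes are switched on within minutes of a signal by transcription factors already present in the cell, without new protein synthesis. Their products are mostly transcription factors, which start the next wave of transcription, and feedback regulators, which end the signal. Egr2 (Krox-20) is a zinc finger transcription factor that antigen receptor signalling induces in T cells, where it limits activation, and that marks alternatively activated macrophages in the mouse. Nr4a1 (Nur77) is an orphan nuclear receptor whose transcript follows the strength of antigen receptor signalling in T cells and which restrains inflammatory genes in macrophages. Ier3 (IEX-1) is a small stress-induced protein, a target of NF-κB, that influences cell survival and ERK signalling.

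The stretches of 250 bases just upstream of the transcription starts are shown because immediate early genes are read out through short sites near the start. The 3 genes held different sets of the motifs below, with some in common. The sequences are from RefSeq on GRCm38.p6, all on the plus strand, and capitals mark every match on either strand to 7 motifs. The motifs were the CArG box of serum response factor, the CRE core TGACG, the GC box GGGCGG, the TATA core TATAA, the κB consensus of NF-κB, the NBRE AAAGGTCA bound by Nr4a receptors and the site GCGNGGGCG bound by Egr proteins.
Egr2, chr10:67537619-67537868: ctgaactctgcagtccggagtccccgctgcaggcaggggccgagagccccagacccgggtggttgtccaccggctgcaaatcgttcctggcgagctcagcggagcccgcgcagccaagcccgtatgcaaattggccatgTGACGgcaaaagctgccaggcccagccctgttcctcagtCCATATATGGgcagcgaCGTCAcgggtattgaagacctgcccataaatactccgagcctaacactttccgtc
Nr4a1, chr15:101266596-101266845: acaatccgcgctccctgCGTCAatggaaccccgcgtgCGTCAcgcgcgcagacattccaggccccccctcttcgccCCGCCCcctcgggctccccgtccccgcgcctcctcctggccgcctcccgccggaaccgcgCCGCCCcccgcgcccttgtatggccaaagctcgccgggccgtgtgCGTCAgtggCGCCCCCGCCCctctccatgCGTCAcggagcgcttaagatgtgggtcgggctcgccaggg
Ier3, chr17:35821463-35821712: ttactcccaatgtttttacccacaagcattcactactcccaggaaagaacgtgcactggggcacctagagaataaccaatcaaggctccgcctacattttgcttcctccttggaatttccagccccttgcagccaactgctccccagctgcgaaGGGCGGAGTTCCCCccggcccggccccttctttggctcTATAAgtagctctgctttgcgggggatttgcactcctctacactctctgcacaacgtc
The Egr2 stretch held 1 CArG box, 72 to 63 bases before the start, and 2 CRE cores. A CArG box was found in 1.47% of all 32851 RefSeq windows of this length. The Nr4a1 stretch held 4 CRE cores, a motif in 17.8% of all windows, and 3 GC boxes (32.7% of windows), 1 of which overlapped its single Egr site (4.70% of windows). The Ier3 stretch held 1 TATA core 58 to 54 bases before the start (22.8% of windows), 1 GC box and 1 κB consensus (7.25% of windows), and the last 2 of these overlapped. No stretch held an NBRE, which was in 1.34% of all windows. A match describes the letters only. Egr2 has 5 start windows in the RefSeq set, and the one shown ends where the principal GENCODE transcript begins. The last 29 bases of the Ier3 stretch lie within the first GENCODE exon.

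Egr2 (NCBI gene 13654) lies on chromosome 10 from 67534469 to 67542188, Nr4a1 (gene 15370) on chromosome 15 from 101253902 to 101274795, and Ier3 (gene 15937) on chromosome 17 from 35821713 to 35822911, all on the plus strand of GRCm38.p6. The principal transcripts have 2, 7 and 2 exons. No other annotated gene overlapped them, and the nearest gene downstream of Ier3, Flot1, began 318 bases after its end.

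In Treg cells of the injured cord Egr2 was lower and Ier3 higher than in Treg cells of the spleen. Egr2 stood at 8.47, 16.63 and 12.64 FPKM in spinal cord Treg libraries 1, 2 and 3, against 62.37, 56.52 and 42.88 FPKM in the spleen Treg libraries. FPKM scales the fragments of a gene by transcript length and by the library's total. Every spinal cord library was below every spleen library. The means were 12.6 ± 4.08 FPKM in the cord and 53.9 ± 10.0 FPKM in the spleen (SD, n = 3 each), a level 4.29-fold lower in the cord. On the log2(FPKM + 1) scale, where the added 1 shrinks differences between low values, the fold change of Egr2 was -2.04 (SE 0.26), rank 18 among 414 genes lower in the cord. By mean FPKM, Egr2 lay above 56.0% of the 1284 genes of the table in the cord and above 85.3% of them in the spleen.

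Ier3 reached 45.24, 72.29 and 76.49 FPKM in Treg libraries of the cord, against 7.58, 7.40 and 14.35 FPKM in the spleen Treg libraries. The groups did not overlap, with cord library 1 the lowest of the cord and spleen library 3 the highest of the spleen. Mean levels were 64.7 ± 17.0 FPKM in the cord and 9.78 ± 3.96 FPKM in the spleen (SD, n = 3 each), 6.62-fold higher in the cord. The log2 fold change was 2.63 (SE 0.29), rank 57 among 658 genes higher in the cord. The authors' deposited table gave log2 fold changes of -2.01 for Egr2 and 2.86 for Ier3.

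Co-cultured microglia had more Egr2 and Ier3 and less Nr4a1 than control microglia. Egr2 stood at 18.20, 19.94 and 16.71 FPKM in co-cultured libraries 1, 2 and 3, against 5.13, 4.79 and 5.11 FPKM in control microglia. The control libraries were almost equal, and every co-cultured library was above all of them. Egr2 averaged 18.3 ± 1.62 FPKM in co-culture and 5.01 ± 0.191 FPKM in control (SD, n = 3 each), a 3.65-fold higher level with a log2 fold change of 1.68 (SE 0.08). That was rank 280 among 817 genes higher in co-culture.

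Nr4a1 stood at 1.28, 1.97 and 2.45 FPKM in the co-cultured libraries, against 16.61, 14.66 and 15.32 FPKM in control microglia. All co-cultured libraries were far below the controls, with library 1 the lowest. The means were 1.90 ± 0.588 FPKM in co-culture and 15.5 ± 0.992 FPKM in control (SD, n = 3 each), so that the level was 8.17-fold lower in co-culture. The log2 fold change was -2.53 (SE 0.15), rank 25 among 712 genes lower in co-culture. Because the co-culture values are low, the pseudocount mattered here, and the log2 fold change was -3.01 with a pseudocount of 0.1 in place of 1.

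Ier3 stood at 70.17, 71.20 and 78.59 FPKM in the co-cultured libraries, against 30.19, 26.84 and 31.53 FPKM in control microglia. The groups were well apart, and the libraries within each were close together. Its mean was 73.3 ± 4.59 FPKM in co-culture and 29.5 ± 2.42 FPKM in control (SD, n = 3 each), 2.48-fold higher in co-culture. The log2 fold change of 1.29 (SE 0.08) was rank 424 among 817 genes higher in co-culture, about the middle of them. The authors' deposited table gave log2 fold changes of 2.09 for Egr2, -2.81 for Nr4a1 and 1.52 for Ier3.

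**Figure D1:**
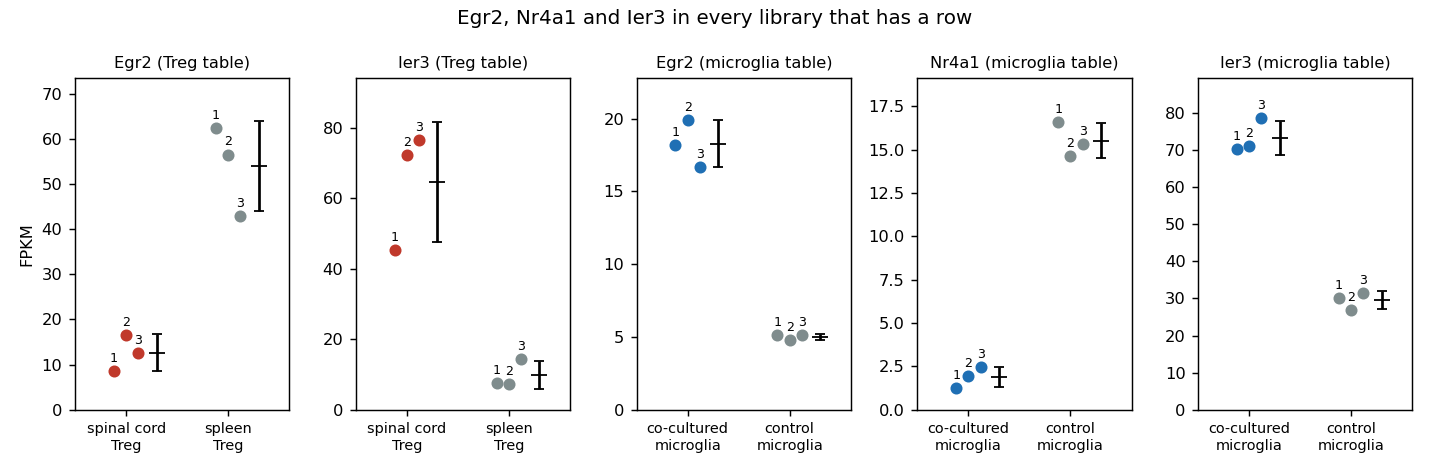
FPKM of Egr2, Nr4a1 and Ier3 in each library (points, numbered by replicate, with mean and SD beside them) of the tissue or culture named on the x axis, 1 panel per gene and table. Egr2 is lower in spinal cord than spleen Treg cells (12.6 against 53.9 FPKM) and higher in co-cultured than control microglia (18.3 against 5.01 FPKM). No pair of groups overlaps, in tables that the authors limited to genes differing between these groups.

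Of the genes tested with limma in each table, 99.6% in Treg cells and 100% in microglia passed the threshold (Benjamini-Hochberg adjusted p under 0.05), because the authors had selected them. All 5 values above passed as well, and nothing is read from that. Nor is anything read from groups that do not overlap, above or below, since the genes were selected for a difference between them. The share of such genes over the whole tables was not counted. The FPKM summed over the table was higher in the cord and in co-culture, at 111243 to 134887 in the cord against 64893 to 65362 in the spleen, and at 115884 to 117408 in co-culture against 59529 to 61068 in control. Scaling every library to the same total shifted genes by a median log2 change of -0.85 in Treg cells and of -0.83 in microglia. The 3 genes kept their directions, which for a gene already lower follows from the downward shift. With equal totals the log2 fold change of Egr2 was -2.94 and that of Ier3 1.75 in Treg cells, and in microglia it was 0.82 for Egr2, -3.30 for Nr4a1 and 0.35 for Ier3. The medians over all tested genes were then 0.09 in Treg cells and -0.11 in microglia.

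The order of levels differed between the genes. The tables were normalized separately, so levels across them are set side by side only. Egr2 was highest in spleen Treg cells (53.9 FPKM), followed by co-cultured microglia (18.3), spinal cord Treg cells (12.6) and control microglia (5.01), and the middle pair lay close, with 16.71 FPKM the lowest value in co-culture and 16.63 FPKM the highest in the cord. Ier3 was highest in co-cultured microglia (73.3 FPKM) and spinal cord Treg cells (64.7), whose libraries overlapped, followed by control microglia (29.5) and spleen Treg cells (9.78).

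The ratio of 2 genes within a library does not depend on the library's total. Ier3 over Egr2 was 5.34, 4.35 and 6.05 in spinal cord Treg libraries, against 0.122, 0.131 and 0.335 in spleen Treg libraries. The more abundant of the pair was thus Ier3 in every cord library and Egr2 in every spleen library. In microglia the same ratio was 3.86, 3.57 and 4.70 in co-culture, against 5.88, 5.60 and 6.17 in control. Ier3 was above Egr2 in all 6 microglia libraries, by less in co-culture, where Egr2 increased by the larger factor. Egr2 over Nr4a1 was 14.2, 10.1 and 6.82 in co-cultured microglia, against 0.309, 0.327 and 0.334 in control microglia, so that Nr4a1 was the higher of the pair in control and Egr2 in co-culture.

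**Figure D2:**
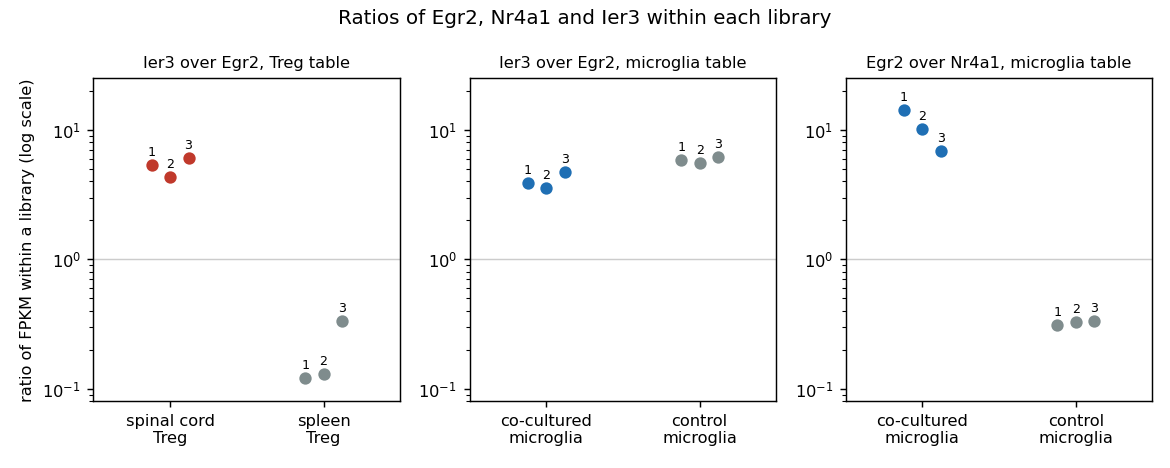
Ratio of the FPKM of 2 genes within each library on a log scale, points numbered by replicate. Ier3 over Egr2 lies on either side of 1 in the Treg tissues (4.35 to 6.05 in the cord, 0.122 to 0.335 in the spleen) and above 1 in all microglia, while Egr2 over Nr4a1 lies on either side of 1 in co-cultured and control microglia.

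The nearest relatives of these genes were also uneven. Egr3, which antigen receptor signalling induces together with Egr2, was listed at 0, 0.11 and 0.62 FPKM in spinal cord Treg libraries, against 1.83, 3.25 and 4.79 FPKM in the spleen, with no overlap. Its log2 fold change was -1.76 (SE 0.33), the direction of Egr2. Nr4a2 stood at 9.55, 11.82 and 12.16 FPKM in the cord, against 7.16, 4.70 and 4.13 FPKM in the spleen. Nr4a3 stood at 16.99, 19.14 and 21.27 FPKM in the cord, against 9.63, 10.84 and 9.48 FPKM in the spleen. Both are orphan nuclear receptors of the Nr4a1 family and were higher in the cord with FPKM as deposited, and with equal totals neither passed the threshold, with Nr4a2 at 0.14 and Nr4a3 just below 0. In microglia Nr4a3 was close to the lower end of the scale, at 0.06, 0.09 and 0.08 FPKM in co-culture and 0.26, 0.28 and 0.25 FPKM in control, below the filter of a mean of 1 FPKM.

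A list of 66 immediate early genes, Egr2, Nr4a1 and Ier3 included, set the frame. In Treg cells 17 of the other 63 were tested, and 13 were higher and 4 lower in the cord, where 61.0% of all tested genes were higher and 38.6% lower. The median log2 fold change of these 17 was 0.97, against 0.95 over all tested genes. With equal totals 5 of them were called higher and 4 lower, 8 were not called, and 2 changed sign. The member of the list with the largest fold change was Plaur, the urokinase receptor, at 279.83, 304.75 and 259.55 FPKM in the cord and 5.91, 10.11 and 8.12 FPKM in the spleen. After Plaur and Ier3, the list's largest rises were in Fosl2, an AP-1 subunit (log2 fold change 2.09, SE 0.34), in Odc1, the first enzyme of polyamine synthesis (1.85, SE 0.39), and in Bhlhe40, a repressor of the clock and of cytokine genes (1.83, SE 0.16). Odc1 was uneven, at 108.60, 351.65 and 90.10 FPKM in the cord and 37.24, 42.43 and 44.52 FPKM in the spleen, and its log2 fold change was 1.24 without cord library 2.

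In microglia 12 of the other 63 were tested, with 7 higher and 5 lower in co-culture, where 53.4% of all tested genes were higher and 46.6% lower. Their median log2 fold change was 0.69, against 0.74 over all tested genes. With equal totals 2 were called higher and 6 lower, 4 were not called and 3 changed sign, and after quantile normalization 1 changed sign. Cd69, a lectin of recently activated lymphocytes and myeloid cells, had the largest rise, to 8.33, 7.37 and 7.43 FPKM in co-culture against 0.62, 0.45 and 0.50 FPKM in control. Nfil3, a basic leucine zipper transcription factor, had a log2 fold change of 1.81 (SE 0.05). Rgs2, which shortens G protein signals, changed by -1.81 (SE 0.06), and Sgk1, a kinase induced by serum and glucocorticoids, by -1.59 (SE 0.06). Besides Egr2 and Ier3, 2 genes of the list were tested in both tables, and they were chosen for mention after their values were seen. Rgs2 had log2 fold changes of 0.90 in Treg cells and -1.81 in microglia, and Csrnp1, a nuclear protein induced by axin, 0.89 and 0.94. With equal totals the Treg values were 0.03 for Rgs2 and -0.01 for Csrnp1, and Csrnp1 in microglia was at 0.13, none of them called.

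**Figure D3:**
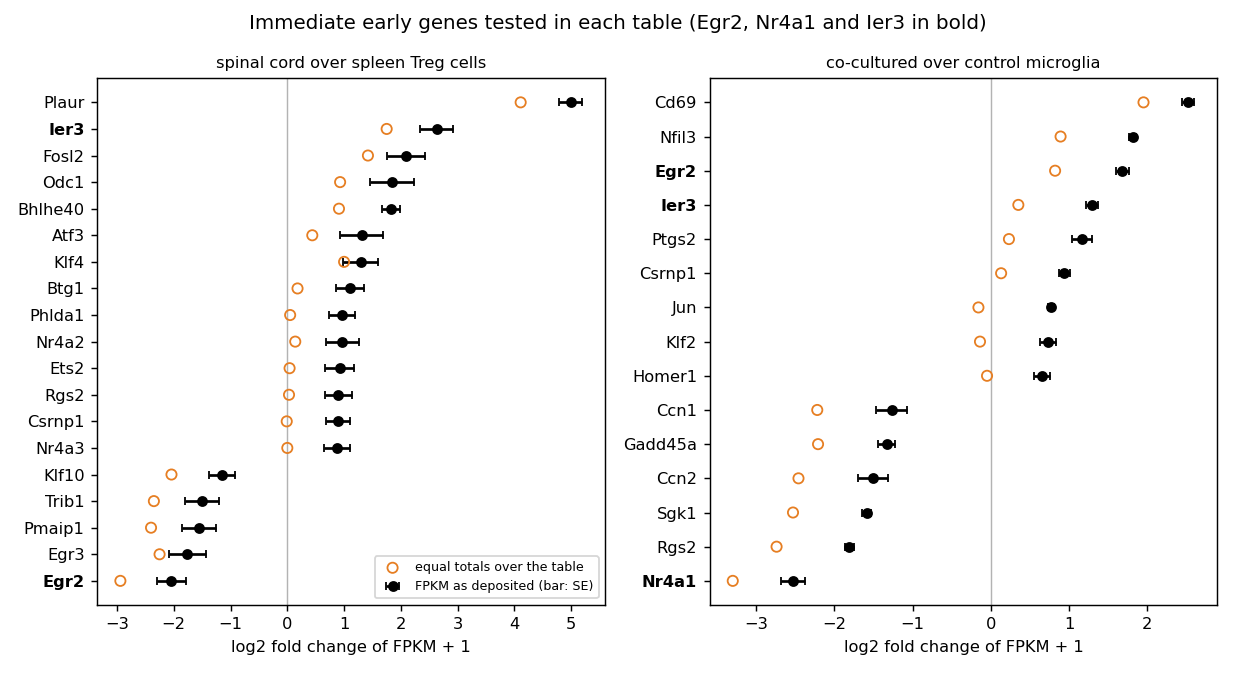
Log2 fold changes on the log2(FPKM + 1) scale of the immediate early genes tested in each table, from FPKM as deposited (filled, with SE) and with equal FPKM totals over the table (open). Among the genes shown, Egr2 is at the low end in Treg cells (-2.04) and among the high values in microglia (1.68). Over the whole microglia table it is rank 280 among 817 genes higher in co-culture. Equal totals move most genes to the left.

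A list of NF-κB subunits, inhibitors and targets held 20 genes, and none of its subunit genes was tested. In Treg cells 4 of the 20 were tested and all were higher in the cord (61.0% of all tested genes were), as deposited, with equal totals and after quantile normalization, with a median log2 fold change of 1.65 against 0.95 over all tested genes. Cd83, an activation marker, had the largest at 2.02 (SE 0.24), followed by Bcl3, a nuclear IκB protein, at 1.68 (SE 0.28) and Traf1, an adaptor of TNF receptors, at 1.63 (SE 0.20). In microglia all 7 tested genes were higher in co-culture (53.4% of all tested genes were), and all but Nfkbia were called with either scaling. The adhesion molecule gene Icam1 (log2 fold change 2.15, SE 0.06), the superoxide dismutase gene Sod2 (1.92, SE 0.08) and Nfkbie, an IκB inhibitor (1.70, SE 0.10), led that list.

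Inhibitors of MAP kinase signalling are another feedback arm of the early response, and few of them were tested. In Treg cells 2 of 16 were tested, Dusp5 (log2 fold change 1.11, SE 0.34) and Dusp16 (0.95, SE 0.28), both phosphatases of MAP kinases and both higher in the cord, where 61.0% of all tested genes were higher, and with equal totals neither was called. In microglia 4 were tested, of which 3 were lower in co-culture, where 46.6% of all tested genes were lower. These 3 kept that direction with either scaling, though equal totals shift genes downwards, so that a lower gene stays lower. Dusp1 was at 6.96, 7.41 and 7.93 FPKM in co-culture and 22.06, 22.99 and 24.77 FPKM in control, Dusp14 changed by -1.20 (SE 0.08) and Dusp4 by -1.13 (SE 0.08).

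A list of 26 genes of antigen receptor signalling and its response in T cells included Egr2 and Nr4a1. In the Treg cells 12 were tested, with 8 higher and 4 lower in the cord, and Egr2 was among the 4 lower. These counts were near the shares over all tested genes (61.0% higher and 38.6% lower). With equal totals 4 were called higher and 4 lower, again with Egr2 among the lower. The largest fold changes went opposite ways. Tnfrsf9, the costimulatory receptor 4-1BB, changed by 2.72 (SE 0.12) and Ctla4, an inhibitory receptor, by 2.23 (SE 0.15). Il2, the T cell growth factor gene, was listed at 1.05, 0 and 0.66 FPKM in the cord, against 4.81, 5.37 and 10.59 FPKM in the spleen. Egr2 and Egr3 thus shared their direction with Il2, and Ier3 shared its direction with Tnfrsf9 and Ctla4.

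Of the defining markers, Ctla4 alone of 10 Treg markers had a row in the Treg table, and 9 of 16 microglia and macrophage markers had one in the microglia table, where they summed to 11780 to 11970 FPKM in co-culture and 5959 to 6121 FPKM in control. The complement genes C1qa, C1qb and C1qc carried most of that sum, and 3 of the 9 were lower in co-culture. Among these was the fractalkine receptor gene Cx3cr1, at 1.26, 1.36 and 1.74 FPKM in co-culture and 136.95, 143.60 and 126.05 FPKM in control, and the others, Tmem119 and Cd14, had log2 fold changes of -1.14 and -1.59. With equal totals 4 of the 9 were called higher and 3 lower. Markers of other cells differed in the same comparisons. In the Treg table the microglia and macrophage list, of which 6 of 16 genes had a row, summed to 81.8 to 99.1 FPKM in the cord and 25.6 to 35.3 FPKM in the spleen. With FPKM as deposited all 5 tested genes of that list were higher in the cord, and with equal totals 1 was called higher, 4 were not called and 1 of them changed sign. The 2 of 9 neutrophil markers with a row summed to 28.4 to 83.0 FPKM in the cord and 4.22 to 9.77 FPKM in the spleen, and C1qb, a complement gene of microglia and macrophages, reached 1.68 FPKM in the cord and was at 0 in all spleen libraries. Ier3 and Plaur are also expressed in myeloid cells, and the part of such cells in their values was not tested. The 3 of 6 endothelial markers with a row, mostly Ly6c1, summed to 163 to 410 FPKM in the cord and 39.4 to 44.4 FPKM in the spleen. Pecam1 and Kdr overlapped between the groups. Pecam1 was not called with equal totals or after quantile normalization, and Kdr was above 0 only in cord library 2 (0.67 FPKM). Of 8 oligodendrocyte markers Cnp alone had a row, at 207.75, 158.97 and 207.05 FPKM in the cord and 48.04, 52.04 and 56.72 FPKM in the spleen. The 3 of 8 CD8 T and NK cell markers with a row went different ways. Xcl1, a chemokine gene, was lower, at 31.22, 61.92 and 33.28 FPKM in the cord and 115.10, 114.30 and 116.05 FPKM in the spleen. Klrk1 was higher, at 7.37, 4.54 and 11.56 FPKM in the cord and 1.88, 0 and 1.70 FPKM in the spleen. Klrb1c was at 1.46, 0.02 and 0.17 FPKM in the cord and at 0 in the spleen. Of 5 B cell markers Cd79b alone had a row, at 5.38, 3.13 and 2.66 FPKM in the cord and at 0 in all spleen libraries. In the microglia, 2 of 10 Treg markers had a row and summed to 2.47 to 2.68 FPKM in co-culture and 11.3 to 12.5 FPKM in control. These were Ikzf2, higher in co-culture, and Cd28, lower in co-culture. The 2 of 8 CD8 T and NK cell markers with a row, Klrk1 and Cd8b1, summed to 1.54 to 2.07 FPKM in co-culture and 0.03 to 0.19 FPKM in control. Both were below the filter of a mean of 1 FPKM. Egr2 is also expressed in T cells, and the part of remaining Treg cells in the Egr2 of co-cultured microglia was not tested. Of the fibroblast and smooth muscle list, 6 of 9 genes had a row and summed to 137 to 265 FPKM in co-culture and 794 to 922 FPKM in control. Co-cultured library 3 was the highest of its group both in that sum and in Nr4a1. It was also the highest in Ier3 (78.59 FPKM), which was higher in co-culture, and the lowest in Egr2 (16.71 FPKM). In control microglia Nr4a1 was highest in library 1 (16.61 FPKM), where that sum was not the highest. The part of stromal cells in the lower Nr4a1 was not tested. Without co-cultured library 3 the log2 fold change of Nr4a1 was -2.67.

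The genes whose profile over the 6 libraries of a table was most like each of the 3 were found by the root mean square difference of centred log2(FPKM + 1). Closest to Egr2 in Treg cells were Hivep3 and Rasgef1b, both at a difference of 0.22, and Smyd5 at 0.23, among 839 candidates. Hivep3, a large zinc finger protein, stood at 4.75, 11.33 and 7.24 FPKM in the cord and 28.81, 27.66 and 29.83 FPKM in the spleen, so that it shared with Egr2 the highest cord value in library 2. Closest to Ier3 in Treg cells were Ms4a4c (0.14), Lgals7 (0.24) and the proton-sensing receptor gene Gpr65 (0.31). Ms4a4c, a membrane protein gene, was at 8.04, 12.58 and 12.70 FPKM in the cord and 0.65, 0.86 and 1.47 FPKM in the spleen, with the same low cord library 1 and high spleen library 3 as Ier3.

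In microglia the closest of 1000 candidates lay nearer. For Egr2 they were Rab3il1 (0.05), Dennd1a (0.05) and Ptgs1, the gene of cyclooxygenase 1 (0.06). For Ier3 they were Glipr2 (0.05), the cytochrome oxidase subunit gene Cox5a (0.05) and Parp3 (0.06). For Nr4a1 they were the LIM protein gene Fhl1 (0.09), Cd248, a surface protein of stromal cells and pericytes (0.10), and Dbp, a transcription factor of the circadian clock (0.12). Cd248 stood at 1.80, 2.39 and 3.41 FPKM in co-culture and 20.47, 17.37 and 21.86 FPKM in control, close to the values of Nr4a1 itself. With 6 libraries in 2 groups, likeness mostly reflects a group difference of the same size.

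**Figure D4:**
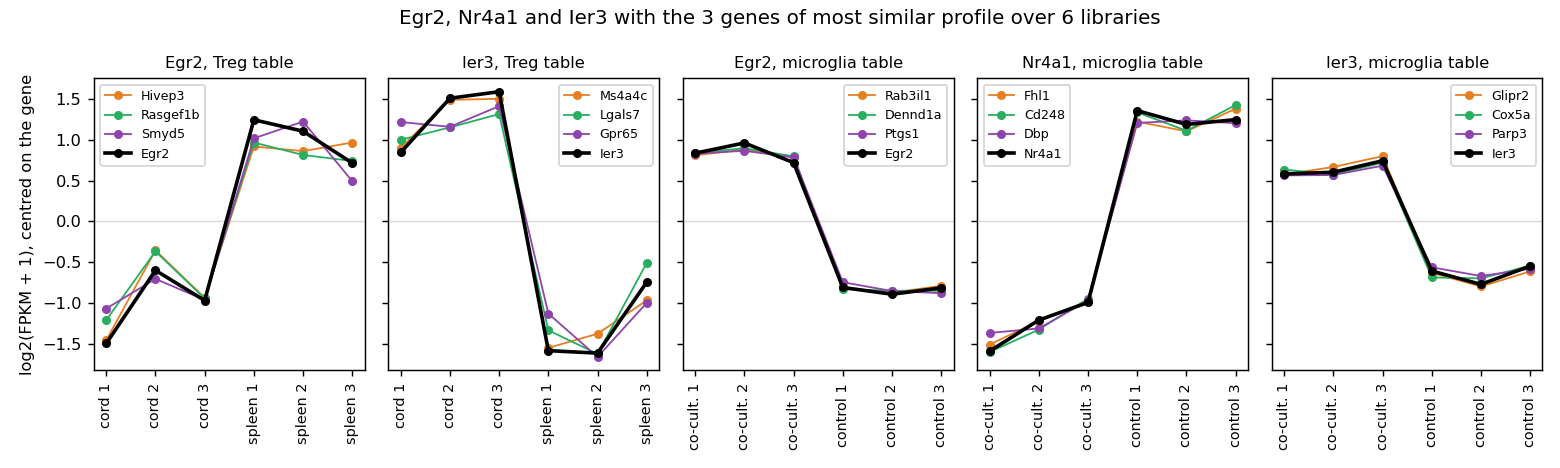
Log2(FPKM + 1) centred on each gene's mean over the 6 libraries of a table, for Egr2, Nr4a1 and Ier3 (black) and the 3 genes of smallest root mean square difference from each (coloured). The lines part more among Treg libraries (differences of 0.14 to 0.31) than among microglia libraries (0.05 to 0.12).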

How the data were processed

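The 12 mouse libraries were made from poly(A) RNA captured on oligo(dT) beads, per the labels' protocols. Sample titles gave the group and replicate number. Values are FPKM made by the authors, per the file headers. The submitters' processing notes list Bowtie2, RSEM 1.3.1, DESeq2 1.4.5 and build GRCm38.p6, with no role for each. The authors' deposited tables also held a log2 fold change and a Q value (an adjusted p-value), with no account of their computation. The numerator in the microglia header is the word Young, which matches no label, and what it refers to is not given. It was read as co-culture, because the fold changes had the sign of co-culture over control in all 2186 genes. The lowest absolute log2 fold change listed was 1.0006 and the highest Q value 0.0498, so the tables are a selection, and depth, library totals and false call rates cannot be had from them.

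Each table was fitted alone on log2(FPKM + 1) with limma 3.58.1 in R 4.3.3 (eBayes with a mean-variance trend, Benjamini-Hochberg adjustment, threshold 0.05) after a filter at a mean of 1 FPKM, which kept 1072 of 1284 and 1529 of 2186 genes. The fit was also run on simulated data in which most genes did not change, unlike in these tables. Nothing is read from that run. Folds are ratios of mean FPKM. Python 3.11.15 with pandas 2.3.3 did all other steps. Genes were matched to RefSeq and GENCODE by NCBI gene ID and symbol, and all 3 matched. Genes named were the 6 of largest absolute log2 fold change from the immediate early list and 3 from other lists, relatives of Egr2, Nr4a1 and Ier3, and their 3 most similar genes at a mean of at least 5 FPKM. The genes and lists were chosen with earlier results of these data known. Alternatives were other pseudocounts, filters, scalings and trends, a replicate block, and leaving out each library. The sources used here do not say how reads were shared among related transcripts.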

Additional observations from a re-analysis of the deposited data

How the results depend on the processing

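The directions of Egr2, Nr4a1 and Ier3 held under every alternative run. For the values below 0 this follows, with equal totals, from the downward shift. Equal totals gave log2 fold changes of -2.94 for Egr2 and 1.75 for Ier3 in Treg cells, and of 0.82 for Egr2, -3.30 for Nr4a1 and 0.35 for Ier3 in microglia. They lowered the Treg genes called to 680 (266 higher and 414 lower, 39.1% higher against 61.2% as deposited) and the immediate early genes called in Treg cells to 11, against 19 as deposited. In microglia equal totals made 42.4% of called genes higher, against 53.4% as deposited. Quantile normalization gave 1.41 for Egr2 and 0.35 for Ier3 in microglia. A pseudocount of 0.1 gave 1.84 for Egr2 and -3.01 for Nr4a1, and one of 0.5 gave -2.77 for Nr4a1, by construction larger for low values. Leaving out 1 library at a time gave -2.26 to -1.81 for Egr2 and 2.48 to 2.92 for Ier3 in Treg cells, and 1.62 to 1.74 for Egr2, -2.67 to -2.37 for Nr4a1 and 1.22 to 1.33 for Ier3 in microglia. It left 1028 to 1044 Treg genes and 1505 to 1544 microglia genes called, with 18 to 19 and 15 immediate early genes. The tables are selections of changed genes, so either scaling takes out part of a shift that they share. A replicate block left 1064 Treg genes and 1529 microglia genes called. Deviations of same-numbered libraries correlated at -0.05 to 0 in Treg cells and -0.04 to 0.17 in microglia. For libraries of different number the range was -0.01 to 0.06 in Treg cells and -0.29 to 0.27 in microglia. With 3 libraries per group these values cannot decide whether libraries were paired. Depth is unknown, which limits what can be said of values near 0.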

Other observations

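In the microglia table some immediate early genes and markers of stromal cells shared a library pattern. Ccn1, a matricellular protein gene chosen after its values were seen, was at 38.40, 44.86 and 67.71 FPKM in co-culture, against 118.45, 109.10 and 132.37 FPKM in control. Its relative Ccn2 was at 50.84, 56.16 and 88.80 FPKM in co-culture, against 185.13, 169.07 and 192.91 FPKM in control. In both genes co-cultured library 3 was the highest of its group, as it was in Acta2, smooth muscle actin, at 18.51, 20.63 and 32.96 FPKM in co-culture and 315.39, 285.63 and 354.09 FPKM in control. That trait was not particular to genes lower in co-culture. Library 3 was also the highest in Ptgs2 (82.42 FPKM) and Ier3 (78.59 FPKM), both higher in co-culture. Rgs2 (15.79 FPKM) and Egr2 (16.71 FPKM) were instead lowest there. Of the 6 fibroblast and smooth muscle markers tested, 5 were lower in co-culture, where 46.6% of all tested genes were lower and 53.4% higher, and Dcn, a matrix proteoglycan gene, was higher and was not called with equal totals.

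A single heat shock gene was tested in each table. Hspd1, a mitochondrial chaperone gene, was at 179.87, 157.66 and 177.14 FPKM in spinal cord Treg cells, against 447.36, 412.27 and 435.20 FPKM in spleen Treg cells. Hspb1, a small heat shock protein gene, was at 9.98, 10.84 and 18.55 FPKM in co-cultured microglia, against 39.92, 35.40 and 45.98 FPKM in control microglia. Both were lower with equal totals and after quantile normalization as well. The median shift of genes is downward with either scaling, so a gene already lower tends to stay lower, and nothing is read from that.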
